A study of Mus musculus with 12 samples.

Results

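The circadian clock genes described here are Arntl, Clock, Per1, Per2, Per3, Cry1, Cry2, Nr1d1, Nr1d2 and Dbp, 10 of the 38293 genes in each of the deposited count tables. They were matched by symbol to Ensembl identifiers, and all 10 were present and had enough counts to be tested in both tables. RNA was sequenced from mouse hearts, with 3 libraries in each of 4 groups. The study used mice aged 8 to 9 weeks. Its methods name them as male under the transgenic models and as male and female, as indicated, in the general section. The WT sham and WT IR libraries came from wild-type C57BL/6J mice, which had sham surgery or ischaemia-reperfusion (IR), in which the left anterior descending artery was tied off for 1 h and then reopened. The Zeb2 WT IR and Zeb2 cTg IR libraries came from wild-type mice and their transgenic littermates. Both are also labelled C57BL/6J, and both were taken 14 days after IR, as were the WT IR hearts. Zeb2 cTg mice carry a Rosa26 lox-stop-lox Zeb2 allele opened by Cre under the Myh6 (αMHC) promoter, so the transgene is meant for cardiomyocytes alone. Whether the wild-type littermates carried Cre is not given in the sources used here. Each pair of groups was counted into a table of its own, and levels are compared within a table unless stated. No sham group of the Zeb2 littermates was analysed here.

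The clock of mammalian cells is a feedback loop. The proteins of Arntl (BMAL1) and Clock bind E-box sequences and switch on Per1, Per2, Per3, Cry1, Cry2, Nr1d1, Nr1d2 and Dbp, and the PER and CRY proteins in turn block their own activators. The REV-ERB proteins of Nr1d1 and Nr1d2 shut Arntl off through sites they share with the ROR activators, so that in tissues of night-active mice Arntl transcripts peak around the end of the night, those of Nr1d1 and then Dbp and Per3 during the day, and those of Per2 around dusk. The hour at which each heart was taken is not given in the sources used here. The mice were kept in 12 h of light and 12 h of dark. Without the hour or a series of time points, a difference in clock phase and a difference in level at the same phase cannot be told apart.

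The stretches below show the elements through which this loop is known to run, where they stand within 250 bases before to 50 bases after an annotated start (RefSeq, GRCm38.p6). Of the 10 genes, 9 had such a window, 13 windows in all, and 6 genes held at least 1 of 5 motifs searched on both strands. The motifs were the E-box CACGTG, present in 7.15% of all 32851 windows of the mouse genome, its variant CACGTT (4.68%), the D-box TTATGTAA bound by DBP, TEF, HLF and NFIL3 (0.938%), the ROR and REV-ERB element TAGGTCA (2.61%) and the cAMP response element TGACGTCA (1.79%). None of these motifs overlaps another in the stretches printed. Capitals mark the motif, which reads as its reverse complement where it lies on the other strand. The first 4 genes are targets of the loop, and Arntl is shown for its REV-ERB element.
Per1, E-box, chr11:69098753-69098812 (+): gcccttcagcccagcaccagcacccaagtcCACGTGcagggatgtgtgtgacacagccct
Cry1, E-box variant and E-box, chr10:85185094-85185153 (-): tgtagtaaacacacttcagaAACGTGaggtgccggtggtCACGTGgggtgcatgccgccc
Per3, D-box at both places, chr4:151044806-151044880 (-): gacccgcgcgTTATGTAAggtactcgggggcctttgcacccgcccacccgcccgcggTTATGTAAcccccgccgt
Nr1d1, E-box variant, chr11:98775378-98775427 (-): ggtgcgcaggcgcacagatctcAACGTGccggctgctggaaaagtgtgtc
Arntl, ROR and REV-ERB element after its second start, chr7:113207531-113207557 (+): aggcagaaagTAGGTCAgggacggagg

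Cry2 held the E-box variant 166 bases before its start, and Per2 had no window. The motifs are matches of letters in short windows, and the absence of a match says nothing of elements farther away. Ciart, a repressor of the loop that is described with the other clock genes, held 3 E-boxes in 1 window, and Nfil3, a D-box repressor, held a ROR and REV-ERB element.
Ciart, E-box, chr3:95882255-95882354 (-): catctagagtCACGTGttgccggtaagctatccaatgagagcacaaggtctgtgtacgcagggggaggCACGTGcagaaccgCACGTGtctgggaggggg
Nfil3, ROR and REV-ERB element, chr13:52981040-52981089 (-): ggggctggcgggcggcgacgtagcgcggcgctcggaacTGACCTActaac

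Each library held 20215781 to 36816818 counts on genes, of which 60.6% to 73.5% lay on the mitochondrial genome, and the 10 clock genes together took 2662 to 9098 reads per library. Levels are given as CPM, counts per 1000000 total counts after TMM normalization within each table, and 1 CPM stood for 17.2 to 37.8 reads. Cardiomyocyte markers were abundant in every library (19 genes summing to 51817 to 78455 CPM), whereas 4 atrial markers summed to at most 3.29 CPM. That highest sum was in Zeb2 cTg IR replicate 3, where Myl7 had 39 reads, and Sln was at 0 in all WT sham and Zeb2 WT IR libraries. Zeb2 itself, the gene of the transgene, stood at 59.8 ± 6.43 CPM (SD, n = 3) in the Zeb2 WT IR libraries and 57.03 ± 1.59 in the libraries labelled Zeb2 cTg IR, a log2 fold change of -0.07 (SE 0.12, edgeR adjusted p = 0.750). The transgene was thus not visible as more Zeb2 reads, and directions below refer to libraries as labelled. The tissue is named as left ventricle in the sample records, as infarct area with border zone in the design text and as the remote zone in the study's methods.

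**Figure D1:**
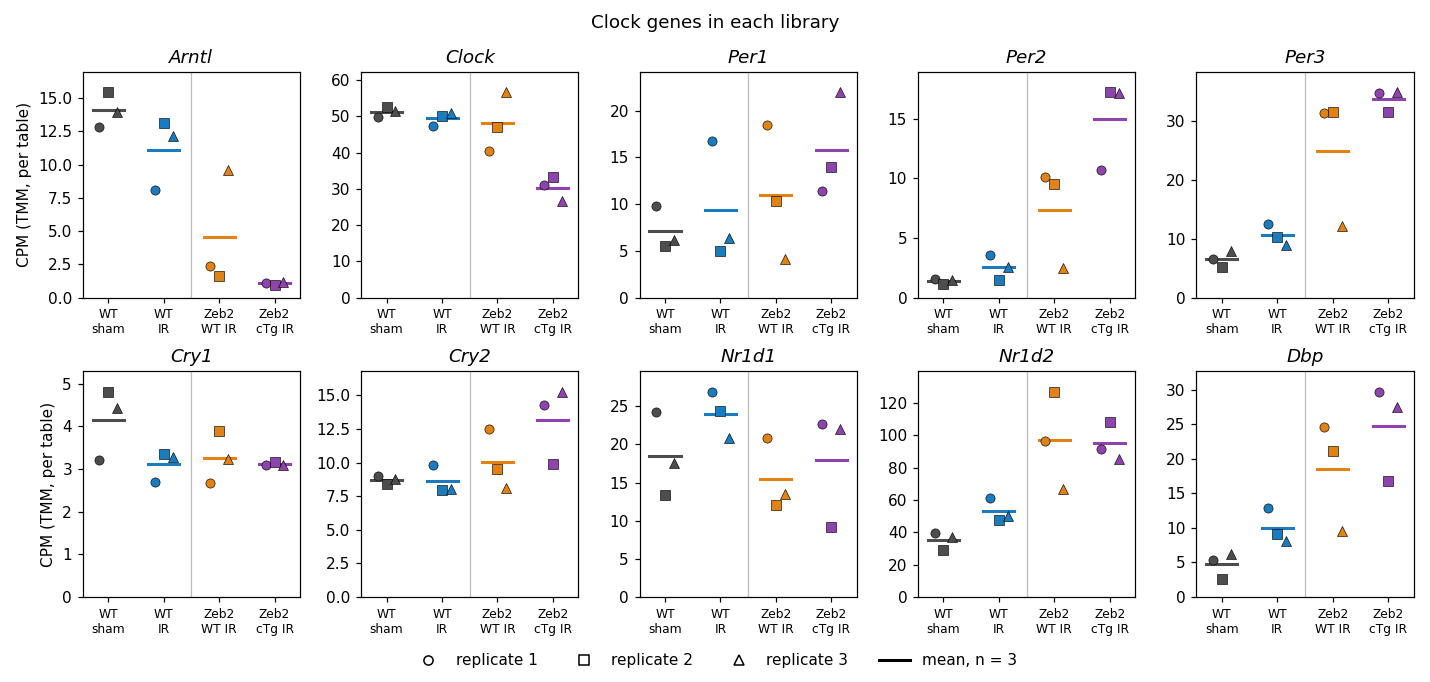
CPM of the 10 clock genes in each library (points, shaped by replicate number) with the mean of each group (bars, n = 3). The grey line parts both tables, which were normalized separately. In the Zeb2 WT IR group, replicate 3 lay far from replicates 1 and 2 for Arntl, Per2, Per3 and Dbp.

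The activating arm was compared first. Arntl, the gene whose protein partners CLOCK, was at 12.9, 15.4 and 14.0 CPM in WT sham replicates 1, 2 and 3 and at 8.09, 13.1 and 12.1 CPM in WT IR. The ranges overlapped, with WT IR replicate 1 the lowest, and the log2 fold change of -0.34 (SE 0.16) did not pass the test (edgeR adjusted p = 0.162). In the other table Arntl was at 2.35, 1.66 and 9.60 CPM in Zeb2 WT IR and at 1.09, 0.954 and 1.21 CPM in those labelled Zeb2 cTg IR. These groups did not overlap, yet replicate 3 of Zeb2 WT IR carried 4.79 times the mean of the other two replicates of its group. The log2 fold change was -2.07 (SE 0.60, edgeR adjusted p = 0.0853), and without that replicate it was -0.88 (adjusted p = 0.231).

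Clock, the partner of Arntl, was at 49.97, 52.6 and 51.5 CPM in WT sham and at 47.4, 50.1 and 51.0 CPM in WT IR, a log2 fold change of -0.05 (SE 0.07, edgeR adjusted p = 0.626). Among the Zeb2 libraries Clock was at 40.6, 47.0 and 56.6 CPM in Zeb2 WT IR and at 31.0, 33.4 and 26.6 CPM in the libraries labelled Zeb2 cTg IR. All of the latter lay below all of the former, and Clock fell by 0.67 on the log2 scale (SE 0.15, edgeR adjusted p = 0.0482). It was the only one of the 10 clock genes called in this comparison, against 3.64% of all genes called 1.51% called lower and 2.14% called higher. Without Zeb2 WT IR replicate 3 the value was -0.53 and was no longer called (adjusted p = 0.195), and the call held after 2 of the 6 single libraries were dropped in turn.

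The PER genes, repressors of their own activators, were then compared. Per1, which also responds acutely to glucocorticoids and cAMP, was at 9.80, 5.49 and 6.17 CPM in WT sham and at 16.8, 5.05 and 6.38 CPM in WT IR. The highest of these was WT IR replicate 1 and the groups overlapped (log2 fold change 0.39, SE 0.41, edgeR adjusted p = 0.533); without that library the value was -0.34. Among the Zeb2 libraries Per1 was at 18.5, 10.3 and 4.10 CPM in Zeb2 WT IR and at 11.4, 14.0 and 22.0 CPM in the libraries labelled Zeb2 cTg IR, again with overlap (0.53, SE 0.44, adjusted p = 0.483).

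Per2 was scarce in the WT table, at 1.55, 1.13 and 1.46 CPM in WT sham (25 to 41 reads) and at 3.62, 1.51 and 2.61 CPM in WT IR. WT IR replicate 2 lay within the sham range, and the log2 fold change of 0.91 (SE 0.31) missed the threshold (edgeR adjusted p = 0.0687). In the Zeb2 table Per2 was at 10.1, 9.51 and 2.47 CPM in Zeb2 WT IR and at 10.7, 17.2 and 17.1 CPM in the Zeb2 cTg IR libraries. The groups did not overlap, with replicate 3 of Zeb2 WT IR far below all other libraries of that table, and the log2 fold change was 1.04 (SE 0.42, adjusted p = 0.176).

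Per3 was at 6.54, 5.27 and 7.97 CPM in WT sham and at 12.5, 10.4 and 8.95 CPM in WT IR. All WT IR libraries lay above all sham libraries, and Per3 rose by 0.71 on the log2 scale (SE 0.17, edgeR adjusted p = 0.0181). After IR in the Zeb2 litters Per3 was at 31.4, 31.6 and 12.2 CPM in Zeb2 WT IR and at 34.8, 31.6 and 34.9 CPM in the libraries labelled Zeb2 cTg IR. Replicates 1 and 2 of Zeb2 WT IR lay near the latter and replicate 3 did not (log2 fold change 0.43, SE 0.30, adjusted p = 0.390).

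The CRY genes, the other repressors, passed the test in neither table. Cry1 was at 3.22, 4.81 and 4.42 CPM in WT sham and 2.69, 3.36 and 3.28 CPM in WT IR (log2 fold change -0.42, SE 0.17, edgeR adjusted p = 0.119), and at 2.68 to 3.89 CPM across the 6 libraries of the Zeb2 table (-0.06, SE 0.19, adjusted p = 0.865). Cry2 was at 8.43 to 8.97 CPM in WT sham and 7.94 to 9.78 CPM in WT IR (-0.02, SE 0.11, adjusted p = 0.909), and at 8.10 to 12.5 CPM in Zeb2 WT IR and 9.89 to 15.3 CPM in the libraries labelled Zeb2 cTg IR (0.39, SE 0.21, adjusted p = 0.276). Groups overlapped for both genes in both tables.

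The REV-ERB genes, the repressors of Arntl, came next. Nr1d2 was at 39.5, 29.3 and 37.0 CPM in WT sham and at 61.4, 47.7 and 49.9 CPM in WT IR, without overlap, and rose by 0.59 on the log2 scale (SE 0.13, edgeR adjusted p = 0.0148). Nr1d1 was at 24.3, 13.4 and 17.6 CPM in WT sham and at 26.9, 24.4 and 20.8 CPM in WT IR, with overlap (0.39, SE 0.19, adjusted p = 0.169). Neither passed the test in the Zeb2 table. Nr1d2 was at 96.8, 127 and 67.0 CPM in Zeb2 WT IR and 91.6, 109 and 85.7 CPM in the libraries labelled Zeb2 cTg IR (-0.02, SE 0.21, adjusted p = 0.957). Nr1d1 was at 20.8, 12.1 and 13.6 CPM and at 22.7, 9.24 and 22.0 CPM (0.22, SE 0.32, adjusted p = 0.706), where replicate 2 labelled Zeb2 cTg IR was the lowest of its table.

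Dbp, a D-box activator and a direct output of CLOCK and BMAL1, was at 5.30, 2.67 and 6.17 CPM in WT sham and at 12.9, 9.18 and 8.13 CPM in WT IR. The groups did not overlap, and Dbp rose by 1.14 on the log2 scale (SE 0.27, edgeR adjusted p = 0.0198). In the Zeb2 table Dbp was at 24.7, 21.2 and 9.56 CPM in Zeb2 WT IR and at 29.8, 16.9 and 27.5 CPM in the libraries labelled Zeb2 cTg IR, with overlap (0.42, SE 0.32, adjusted p = 0.444). Dbp shares 539 exonic bases with Sphk2 on the opposite strand, and Nr1d1 shares 263 with Thra. The libraries were stranded, but whether counting used the strand is not given in the sources used here. In WT IR against WT sham Sphk2 (log2 fold change -0.65, adjusted p = 0.00611) and Thra (-0.31, adjusted p = 0.0274) both fell, opposite to the values of their partners. In Zeb2 cTg IR against Zeb2 WT IR the overlapping genes had values of the same sign as their partners, 0.59 for Sphk2 (adjusted p = 0.297) and 0.20 for Thra (adjusted p = 0.588). Thra, like Nr1d1, was lowest in replicate 2 within each Zeb2 group, at 19.95, 13.1 and 17.8 CPM in Zeb2 WT IR and 23.3, 14.0 and 21.1 CPM in those labelled Zeb2 cTg IR. The part of reads from the opposite strand in the values of Dbp and Nr1d1 was not tested.

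**Figure D2:**
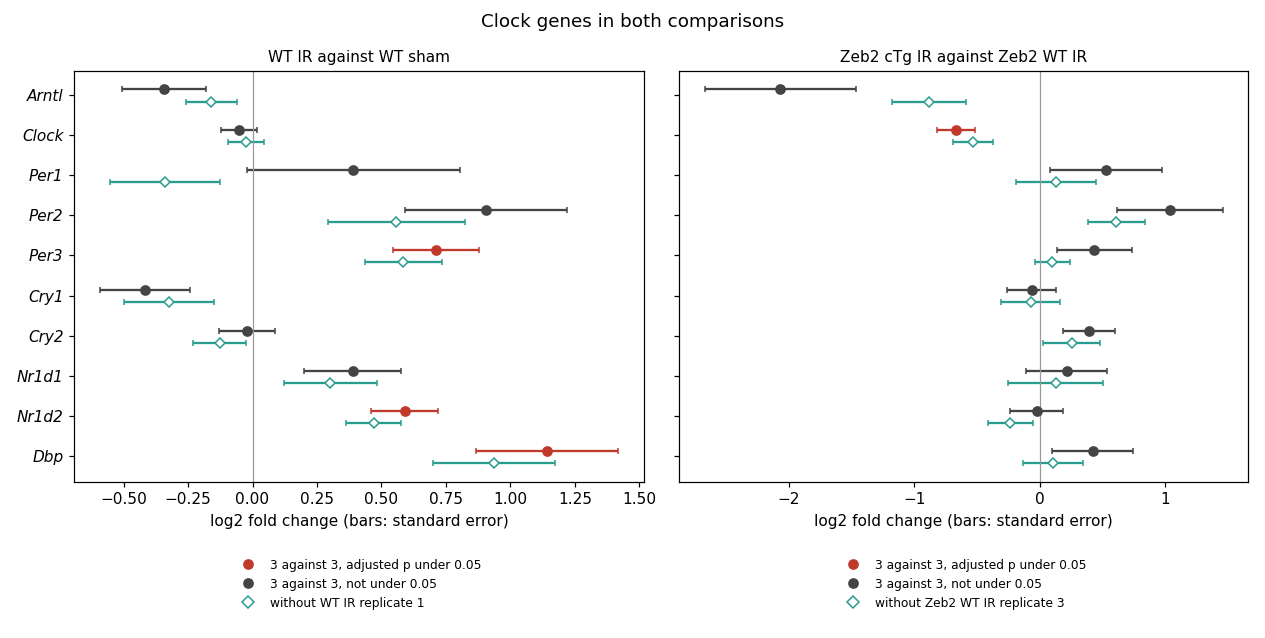
Log2 fold change (x axis) of each clock gene with its standard error, in WT IR against WT sham (left) and Zeb2 cTg IR against Zeb2 WT IR (right). Filled points use 3 against 3 libraries, red where the adjusted p was under 0.05 (Per3, Nr1d2 and Dbp on the left, Clock on the right), and open diamonds leave out the library named in the key, without which Arntl on the right goes from -2.07 to -0.88 and Per1 on the left changes sign.

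The list was then read as a whole. In WT IR against WT sham 3 of the 10 clock genes were called, all higher, where 20.8% of all 13756 genes tested were called 11.0% called higher and 9.74% called lower. Groups did not overlap for the same number, 3 of 10, against 39.8% of all genes. At an unadjusted p under 0.05 it was 5 of 10, against 36.2% of all genes. The median log2 fold change of the list was 0.39, beside 0.01 over all genes. Without WT sham replicate 2, the sham library with the lowest Dbp, Nr1d2 and Per3, no clock gene was called by edgeR (3 at an unadjusted p under 0.05), and the values were 0.81 for Dbp, 0.46 for Nr1d2 and 0.55 for Per3, in a fit that called 3.05% of all genes. Without WT IR replicate 1 the same 3 clock genes were called, against 36.0% of all genes. In Zeb2 cTg IR against Zeb2 WT IR the 1 called gene of 10 is given above, and the groups did not overlap for 4 of 10 (Arntl, Clock, Per2 and Per3), against 26.2% of all 13018 genes tested. At an unadjusted p under 0.05 it was 3 of 10, against 24.1% of all genes. Without Zeb2 WT IR replicate 3 edgeR called 0 of 10 (3 at an unadjusted p under 0.05), against 0.737% of all genes.

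Of 22 other genes of the clock network, 21 had enough counts to be tested. In WT IR against WT sham Rora, an activator of Arntl, rose (log2 fold change 0.31, edgeR adjusted p = 0.0243), and Nfil3, which competes with DBP for D-boxes, fell (-0.74, adjusted p = 0.0260). Nfil3 was at 4.77, 7.11 and 4.77 CPM in WT sham and 2.91, 3.20 and 4.06 CPM in WT IR. In all 4 of the 21 passed, a share close to the 20.8% of all genes called in this comparison, and 17 did not, among them Tef and Hlf, relatives of Dbp, at 0.27 (adjusted p = 0.259) and -0.52 (adjusted p = 0.0764). In Zeb2 cTg IR against Zeb2 WT IR edgeR called 0 of 21, with 4 at an unadjusted p under 0.05, against 3.64% and 24.1% of all genes.

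The arrangement of the clock genes within a library was described by ratios of CPM per kilobase of exon, which do not depend on how the library was scaled. The ratio of Dbp to Arntl was 1.03, 0.435 and 1.11 in WT sham and 3.998, 1.75 and 1.69 in WT IR. The WT groups did not overlap, and WT sham replicate 2 was the lowest. In the Zeb2 table the ratio was 26.4, 32.1 and 2.50 in Zeb2 WT IR and 68.6, 44.4 and 57.3 in the libraries labelled Zeb2 cTg IR. Replicate 3 of Zeb2 WT IR thus lay among the WT IR libraries, although the other two replicates of its group lay an order of magnitude higher, and those labelled Zeb2 cTg IR were the highest.

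A wider index, the mean log2 level per kilobase of Arntl and Clock minus that of Dbp, Nr1d1, Nr1d2 and Per3, gave the same order of groups. It was -0.21, 0.60 and -0.12 in WT sham, -1.33, -0.63 and -0.53 in WT IR, -2.98, -2.97 and -0.75 in Zeb2 WT IR, and -3.84, -3.38 and -3.82 in the libraries labelled Zeb2 cTg IR. Group means differed by -0.92 between WT IR and WT sham and by -1.45 between the Zeb2 groups, and the latter difference was -0.71 without Zeb2 WT IR replicate 3. These indices are a description of the libraries, and no test was made of them. Both WT IR and Zeb2 WT IR are wild-type hearts 14 days after IR, yet only replicate 3 of the latter lay within the range of the former.

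Levels per kilobase also changed rank between WT sham and the Zeb2 libraries. This reads across both tables, so from these groups alone surgery, table and, for Zeb2 cTg IR, genotype cannot be told apart. The WT IR libraries share their table with WT sham and their surgery with Zeb2 WT IR. In WT sham the order ran from Nr1d2 (6.52 ± 0.98 CPM per kilobase, SD, n = 3) and Nr1d1 (5.99 ± 1.80), which overlapped, through Clock (3.74 ± 0.10) and Arntl (1.87 ± 0.17) to Per3 (0.687 ± 0.141) and Per2 (0.236 ± 0.037). Dbp (1.57 ± 0.61), Cry2 (1.38 ± 0.04), Per1 (1.27 ± 0.41) and Cry1 (1.24 ± 0.25) stood close together in between, and the range of Dbp overlapped that of Arntl. In WT IR Nr1d2 (9.80 ± 1.36) and Nr1d1 (7.81 ± 1.00) were again the highest and Per2 (0.441 ± 0.181) the lowest, with Arntl at 1.48 ± 0.36. In the libraries labelled Zeb2 cTg IR Nr1d2 (17.6 ± 2.19) was followed by Dbp (8.26 ± 2.30), and Arntl (0.144 ± 0.017) was the lowest of all 10. The means of Zeb2 WT IR gave the same first and last places, with Nr1d2 at 17.9 ± 5.56, Dbp at 6.17 ± 2.64 and Arntl at 0.603 ± 0.584. Arntl was the lowest in its replicates 1 and 2 (0.312 and 0.221) but not in replicate 3. There Arntl (1.275) lay above Per2 (0.421), Per1 (0.728), Cry1 (0.968) and Per3 (1.266), and Dbp (3.19) lay below Nr1d1 (4.41) and Clock (4.13).

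**Figure D3:**
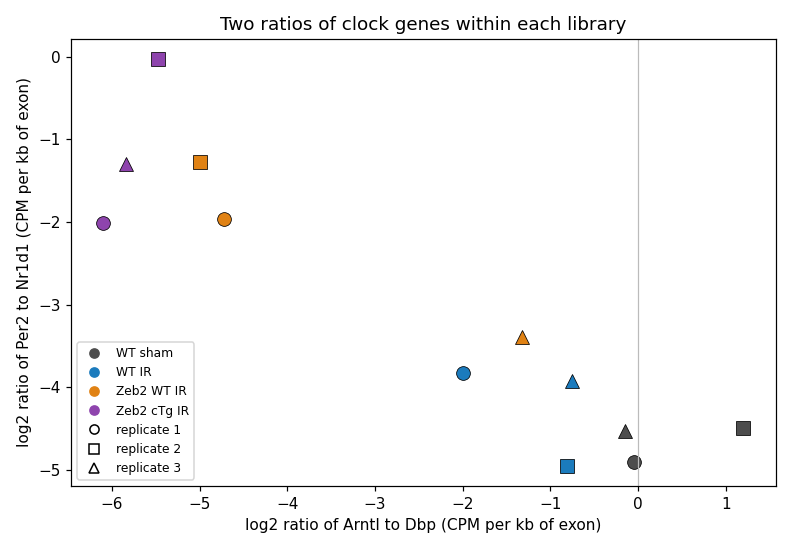
Each point is 1 library, placed by the log2 ratio of Arntl to Dbp (x axis) and of Per2 to Nr1d1 (y axis), both from CPM per kilobase of exon. The ratio of Per2 to Nr1d1 was chosen after its values were seen. Zeb2 WT IR replicate 3 (orange triangle) lies within the range of the WT IR libraries on the x axis and above all WT libraries on the y axis, below and to the right of replicates 1 and 2 of its own group.

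A second pair of genes separated libraries within the Zeb2 cTg IR group. The ratio of Per2 to Nr1d1, chosen after the values were seen because their peaks lie apart in the day, was 0.0335, 0.0446 and 0.0435 in WT sham and 0.0707, 0.0325 and 0.0659 in WT IR. It was 0.256, 0.413 and 0.0955 in Zeb2 WT IR and 0.248, 0.979 and 0.408 in the libraries labelled Zeb2 cTg IR. Replicate 2 labelled Zeb2 cTg IR combined the lowest Nr1d1 (9.24 CPM) with the highest Per2 (17.2 CPM) of its table. Replicate 3 of that group had nearly as much Per2 (17.1 CPM) but more Nr1d1 (22.0 CPM). The ratios of these replicates thus differed through Nr1d1. Replicate 2 also had the lowest Dbp of its group, at 16.9 CPM. This library stood at least 2-fold apart from the mean of the other replicates of its group for more genes than any other library did, 551 of 11249 (4.90%), of which 489 were lower. With GC correction the log2 fold changes of Nr1d1 and Dbp in this table were -0.17 and -0.15. The part of this wider departure in the clock values was not tested.

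Replicate 3 of Zeb2 WT IR differed by at least 2-fold from the mean of the other two replicates for 5 of the 10 clock genes, whereas 164 of 11226 genes with a mean of at least 1 CPM did so, or 1.46%. Arntl was 4.79-fold higher, and Per2 was 3.98-fold, Per1 3.52-fold, Per3 2.59-fold and Dbp 2.398-fold lower. Of the other clock genes 5 of 21 differed as much, Npas2, which can stand in for Clock, being 3.86-fold higher and Ciart 4.10-fold lower. In each of the other 11 libraries between 0 and 2 of the 10 clock genes stood apart in this way, beside 0.161% to 4.90% of all genes. It was 2 of 10 in WT IR replicate 2, beside 0.217% of genes, and in Zeb2 WT IR replicate 1, beside 1.26%. It was 1 of 10 at both ends of that range, WT sham replicate 2 (0.161%) and Zeb2 cTg IR replicate 2 (4.90%). Zeb2 WT IR replicate 3 had the highest summed fibroblast markers of its group (2062 CPM, against 1263 and 926) and a similar sum of cardiomyocyte markers (65119 CPM, against 65869 and 70292). The part of the fibroblast markers in the clock values was not tested.

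**Figure D4:**
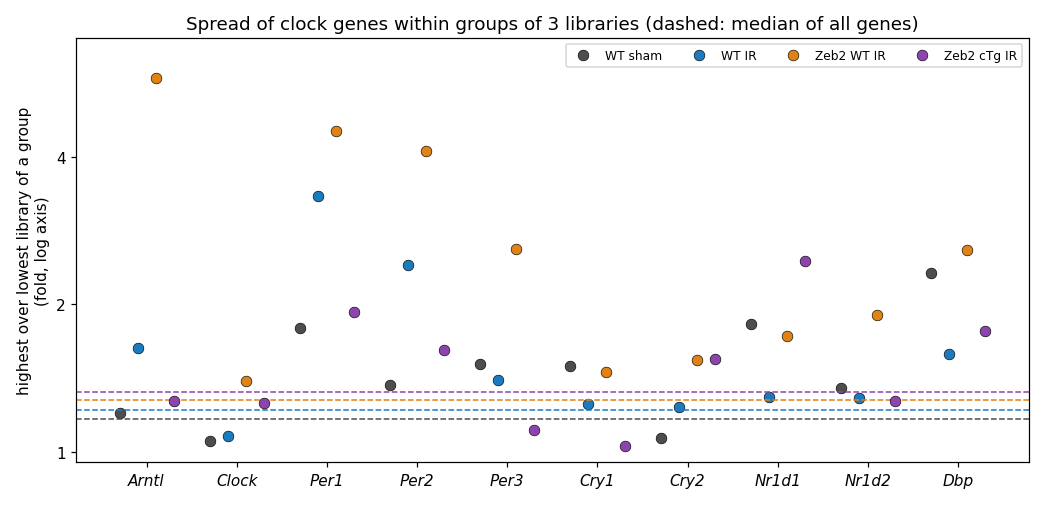
Highest over lowest library within each group of 3 (fold, log axis) for each clock gene, with the median over all genes of at least 1 CPM as dashed lines of the same colour. In Zeb2 WT IR the spread was 5.78-fold for Arntl, 4.52-fold for Per1 and 4.11-fold for Per2, beside a median of 1.27-fold.

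The spread within the other groups was narrower for Arntl, Per1, Per2, Per3 and Dbp, but not for every gene. In WT IR Per1 varied 3.32-fold and Per2 2.404-fold, beside a median of 1.21-fold over all genes, with replicate 1 the highest for both. In WT sham Dbp varied 2.31-fold, wider than all but 0.484% of genes, and Nr1d1 1.82-fold. In the libraries labelled Zeb2 cTg IR Nr1d1 varied 2.45-fold, whereas Arntl (1.27-fold), Per3 (1.11-fold) and Cry1 (1.03-fold) stayed below the median of 1.32-fold.

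Markers of other cells and of stress moved with some of these groups. In bulk tissue fewer cells of a type and less RNA per cell cannot be told apart. Over all genes, 11.0% were called higher and 9.74% lower in WT IR against WT sham. In the Zeb2 comparison it was 2.14% higher and 1.51% lower. In WT IR against WT sham 9 of 10 fibroblast markers rose (summed 1891 to 4731 CPM, against 522 to 928), 7 of 9 macrophage markers rose (142 to 257 CPM, against 107 to 122) and 6 of 19 cardiomyocyte markers fell (51817 to 66491 CPM, against 67117 to 74382). In the Zeb2 comparison 3 of 10 fibroblast markers fell (542 to 665 CPM in the libraries labelled Zeb2 cTg IR, against 926 to 2062) and 2 of 19 cardiomyocyte markers rose (73995 to 78455 CPM, against 65119 to 70292). Ttn was the largest part of the cardiomyocyte sums, at 30172 to 41432 CPM in the WT table and 39047 to 50654 in the Zeb2 table. It was called in neither comparison (edgeR adjusted p = 0.521 and 0.642). No endothelial marker of 8 was called by edgeR in either comparison (2 and 3 at an unadjusted p under 0.05, against 36.2% and 24.1% of all genes). Of 6 smooth muscle and pericyte markers 2 rose and 1 fell in WT IR, and 1 of the 5 tested rose in the libraries labelled Zeb2 cTg IR.

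Of 7 genes that respond to glucocorticoids, hormones that follow the day and stress, 2 rose in WT IR, Fkbp5 (log2 fold change 0.78, edgeR adjusted p = 0.0130) and Cdkn1a (0.51, adjusted p = 0.0410). Of 6 immediate early genes tested, which answer acute stimuli such as handling, 2 fell, Jun (-0.60, adjusted p = 0.00266) and Junb (-0.73, adjusted p = 0.0174). Over all genes 20.8% were called in this comparison, 11.0% higher and 9.74% lower. In the Zeb2 comparison edgeR called none of either list (1 and 2 at an unadjusted p under 0.05), against 3.64% of all genes called and 24.1% at an unadjusted p. The part of the cell types and of these responses in the clock values was not tested.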

How the data were processed

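Per the labels and the study's methods, the authors made stranded libraries from heart RNA, sequenced 75 bp single-end reads, aligned them with STAR 2.4.2a to mm10 and deposited raw counts per gene for 2 tables of 6 libraries. HTSeq 0.6.1 is also named in the submitters' processing notes. The sources name both a total RNA and an mRNA kit. Each table was fitted on its own in R 4.3.3 with edgeR 4.0.16 (TMM, filterByExpr with a minimum count of 10 and a minimum total of 15, quasi-likelihood test, two-sided, Benjamini-Hochberg adjustment over all genes, threshold 0.05), after tests on simulated data. A mean over 3 libraries is given with its SD. The alternatives were other size factors, filters, GC correction (loess, span 0.5), a replicate block, DESeq2 1.42.0, limma-voom (limma 3.58.1) and each library left out.

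The named genes are the 10 clock genes, the fixed list of 22 others where they passed or belong to an index, the called members of the stress lists, and the genes most like Arntl and Dbp. Genes overlapping clock genes were added after the values were seen. The members and lists were chosen with earlier results of these data known. Symbols and exon lengths come from GENCODE M21 (GRCm38). No libraries were duplicates. Each library is a separate animal per the design text. Replicate numbers were not used to pair libraries in the main fit, and correlations of same-numbered libraries are given below. Some genes that meet the naming rule are not reported here.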

Additional observations from a re-analysis of the deposited data

How the results depend on the processing

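In WT IR against WT sham the number of clock genes called (3 of 10) was 5 with cardiomyocyte marker size factors, 5 without a filter, 6 with replicate block and GC correction, and 5 of 4973 genes at an unadjusted p under 0.05. Leaving out 1 library gave 0 to 3 clock genes and 421 to 4980 genes (2859 with all), the lowest without WT sham replicate 2 and the highest without WT IR replicate 1. The replicate block alone called 4 clock genes, adding Per2, among 2595 genes. Arntl minus Dbp alone differed by -1.52. In Zeb2 cTg IR against Zeb2 WT IR the clock genes called (1 of 10) were 2 of 1134 genes with marker size factors, 3 of 1553 without a filter, 2 of 1813 with the replicate block (Arntl and Clock), 1 of 856 with GC correction, 0 of 714 with block and GC correction (2 at an unadjusted p under 0.05), 1 of 1095 with DESeq2, 0 with 10 counts in every library, 0 with limma-voom (3 at an unadjusted p under 0.05 in both) and 3 of 3134 at an unadjusted p. Leaving out 1 library gave 0 to 1 clock genes and 98 to 2419 genes (474 with all), the lowest without Zeb2 WT IR replicate 3 and the highest without Zeb2 cTg IR replicate 2. The causes of these changes were not tested.

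Marker size factors moved the median of all genes to 0.27 in the WT table (3587 genes higher, 308 lower, against 1519 and 1340) and to -0.32 in the Zeb2 table (162 and 972, against 278 and 196). GC correction gave 1179 higher and 1588 lower in the WT table left Nr1d2 uncalled there (adjusted p = 0.0581) and called Clock lower (-0.23, adjusted p = 0.0486). Same-numbered libraries deviated together with r of -0.047, -0.001 and -0.008 in the WT table and 0.191, 0.358 and -0.032 in the Zeb2 table, and not every library correlated best with its own number, so the block rests on shared numbers alone.

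Signs that changed all belong to log2 fold changes that were not called with all libraries and TMM. In the WT table Clock was 0.22 and Cry2 0.24 with marker size factors, and Cry2 was 0.0078 with GC correction, 0.0041 with block and GC correction, and from -0.13 to 0.037 when 1 library was left out (above 0 without WT IR replicate 2 or 3). Leaving out 1 library gave -0.34 to 0.70 for Per1 and -0.18 to 0.42 for Ciart, below 0 without WT IR replicate 1. In the Zeb2 table Nr1d1 was -0.16 with marker size factors, -0.17 with GC correction and -0.19 with block and GC correction. Nr1d2 was 0.016 with the replicate block, 0.18 with GC correction, 0.22 with both, 0.017 with limma-voom and -0.23 to 0.22 when 1 library was left out (above 0 without Zeb2 WT IR replicate 2 or Zeb2 cTg IR replicate 3). Dbp was -0.15 with GC correction and -0.046 with block and GC correction. Zeb2 was 0.15 with either and -0.13 to 0.019 when 1 library was left out (above 0 without Zeb2 WT IR replicate 3). Cry1 ran from -0.19 to 0.076 (above 0 without Zeb2 WT IR replicate 2) and Npas2 from -1.10 to 0.34 (above 0 without replicate 3). The call of Clock held in 9 of 16 alternatives (adjusted p from 0.00430 to 0.195). Those of Nr1d2, Dbp and Per3 in the WT table held in 14, 13 and 13 of 16. Among the 6 of these that left out 1 library, they held in 5, 3 and 3. Per2 in WT sham and Ciart in the WT table rest on few reads, which limits their precision.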

Other observations

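The genes most like Arntl were ranked by the Pearson r of log2 CPM after each group's mean was subtracted, over 12 libraries and 11953 genes, as a description with no test. The highest r were those of Mtmr11 (0.95), Rabgef1 (0.93), Tek (0.92), S100a13 (0.92) and Rflnb (0.91), and the lowest those of Ciart (-0.96), Pkdrej (-0.95), Dnajc28 (-0.94), Gdap10 (-0.94) and Hlf (-0.93). Of these lowest 5 genes, 2 belong to the other clock genes, and Per3, Per2 and Nr1d2 took ranks 6, 10 and 13 from the bottom. In an alternative chosen after seeing the data, without that library, the lowest r were those of Rprd1a, Agtpbp1, Sar1b, Gdap10 and Mpc1 and no clock gene was among them, with Gdap10 at -0.93, Nr1d2 at rank 24 (-0.89), Ciart at rank 524 (-0.66) and Per3 at rank 1520 (-0.48).

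For Dbp, the highest r were those of Larp6 (0.92), Rnf5, Lncpint, Rnf44 and Ubl7 (0.89), and the lowest those of Tbc1d31 (-0.92), Trappc1, Rpl23, Cmtm6 and Ankrd26 (-0.89). Among the clock genes Per3 came closest to Dbp, at rank 7 from the top (0.88), and at rank 10 without Zeb2 WT IR replicate 3. Without that library the highest r were those of Cep85 (0.93), Adra2b, Gpn3, Larp6 and Ubl7 (0.91). The lowest were then those of Trappc1 (-0.95), Slc25a53, Prr14l, Smcr8 and Acbd3 (-0.91).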
